A study of Mus musculus with 12 samples.

Results

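Sox9, Sox8, Sox10, Dmrt1 and Amh are 5 genes around the choice and upkeep of Sertoli cell fate, the fate of the supporting cells that build the testis. All probe sets that the platform annotation assigned to one of these genes alone were taken, which gave 9 of the 45037 probe sets other than controls, for 5 of 18193 genes. Sox9 had 3 probe sets, Sox10 had 3, and Sox8, Dmrt1 and Amh had 1 each. They were followed in gonadal cells of mouse embryos at E11.5, the stage at which XX and XY gonads begin to diverge, on 12 Affymetrix arrays in 4 groups of 3. The groups were Cbx2 knockout (KO) XY, KO XX, wild-type (WT) XY and WT XX, with embryos taken from crosses of Cbx2 heterozygotes and staged by counting tail somites. Cbx2 encodes a chromobox subunit of the Polycomb repressive complex PRC1. The cells were cut by laser from frozen sections, at places chosen by GATA4 staining and tissue form, so each array could also hold neighbouring cell types. Each array held RNA pooled from 2 or 3 individuals, so every p-value rests on the spread between 3 pools per group.

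In the mouse, the Y-linked gene Sry acts for a short time in the supporting cells of the XY gonad and switches on Sox9, a transcription factor of the SoxE group. SOX9 then keeps its own gene active, with FGF9 and prostaglandin D2 signalling in support, and turns on Sertoli genes such as Amh, which encodes the hormone that removes the Müllerian ducts. Sox8 and Sox10 are the other SoxE genes. Sox8 backs up Sox9 in Sertoli cells, and Sox10 is best known for its work in neural crest and glia. Dmrt1 encodes a DM-domain transcription factor that is present in gonads of both sexes before they diverge, also in germ cells, and later holds Sertoli cells in their fate.

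Genotype was taken from the titles and the genotype field. A further label field calls the WT samples KO XX gonads, so KO and WT below stand for arrays titled so. The brighter Cbx2 probe set gave 9.43, 9.33 and 9.58 in KO XY and 9.28, 9.27 and 9.48 in KO XX, against 8.93, 9.04 and 8.81 in WT XY and 8.77, 8.46 and 8.57 in WT XX (log2). It was higher in the KO arrays, but no source used here gives the deleted part of Cbx2, so this value does not check the genotype. The X-inactivation RNA Xist and the Y-linked gene Eif2s3y matched the labelled sex in every array. Of the gonadal ridge markers Gata4, Wt1, Nr5a1, Lhx9 and Emx2, Gata4, Nr5a1 and Lhx9 were lower in KO gonads of both sexes, and Wt1 and Emx2 passed the test in neither. WT XX replicate 1 stood apart, with a mean correlation over probe sets of 0.988 with the other WT XX arrays and 0.994 with the WT XY arrays. The Gapdh 3' minus 5' difference, a control measure that grows as RNA or its copies get shorter, was 4.91 ± 0.12 in KO XY, 4.05 ± 0.22 in KO XX, 4.13 ± 0.38 in WT XY and 4.30 ± 0.45 in WT XX (log2, SD, n = 3 each). It therefore moved with genotype in XY gonads.

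Sox9 was high in WT XY gonads alone. Its brightest probe set (1424950_at, for the gene at chr11:112782210-112787757 in GRCm38.p6) gave 6.02, 6.14 and 5.70 in the 3 KO XY arrays, against 8.96, 8.56 and 8.64 in the 3 WT XY arrays. In XX gonads it gave 6.09, 6.79 and 6.15 in KO arrays, against 6.32, 6.48 and 6.14 in WT arrays. The XY arrays of KO and WT lay more than 2 log2 units apart at their nearest, whereas the XX arrays of KO and WT overlapped. In XY gonads Sox9 was 6.80-fold lower in KO than in WT, a log2 difference of -2.77 ± 0.19 (SE, adjusted p = 6.91e-07). In XX gonads the difference was 0.03 ± 0.19, with a 95% interval from -0.37 to 0.43 (adjusted p = 0.943). The deposited table has no detection calls, so whether Sox9 stood above background in XX gonads is not known here. The XX interval therefore sets no bound on a change in Sox9 RNA. Fewer Sox9-expressing cells and less Sox9 RNA per cell cannot be told apart in pooled tissue.

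The second Sox9 probe set (1451538_at) gave the same order. It gave 5.84, 5.76 and 5.72 in KO XY, against 8.32, 7.79 and 7.82 in WT XY. It gave 5.74, 6.12 and 5.85 in KO XX, against 6.34, 5.99 and 6.14 in WT XX. Again no KO XY array came near the WT XY arrays, and the XX arrays overlapped. The KO minus WT difference was -2.21 ± 0.15 in XY (adjusted p = 9.28e-07), 4.61-fold lower, and -0.26 ± 0.15 in XX (adjusted p = 0.347).

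The third Sox9 probe set (1433889_at) had a narrower spread. It gave 4.14, 4.27 and 4.32 in KO XY, against 4.56, 4.80 and 5.23 in WT XY. The 2 groups did not overlap, and the difference of -0.62 ± 0.17 passed the test (adjusted p = 0.0359). That call ended without any one of the KO XY arrays, without WT XY replicate 2 or 3, and with the Gapdh difference as a covariate. Across the alternatives its adjusted p ran from 0.00638 to 0.162. In XX its values were 4.34, 4.57 and 4.17 in KO, against 4.11, 4.38 and 4.59 in WT, which overlapped.

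In WT gonads Sox9 separated the sexes. The brightest probe set was 5.30-fold higher in XY than in XX, a log2 difference of 2.41 ± 0.19 (adjusted p = 1.49e-05), and the second was 3.52-fold higher, at 1.82 ± 0.15 (adjusted p = 4.11e-05). The third differed by 0.50 ± 0.17 and did not pass (adjusted p = 0.538). Of all 45037 probe sets, 25 differed between WT XY and WT XX, and 2 of these were Sox9 probe sets. Without WT XX replicate 1 the number was 2449. WT XX replicate 1, the array that resembled WT XY over the whole array, had 6.32 for the brightest Sox9 probe set, between the 6.14 and 6.48 of the other WT XX arrays. Its Sox9 level was thus that of its own group. Without that array the sex difference in WT was 2.41 (adjusted p = 8.10e-05).

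In KO gonads no difference in Sox9 between the sexes passed the test. The brightest probe set differed by -0.39 ± 0.19 for XY minus XX, with an interval from -0.79 to 0.01 (adjusted p = 0.479). The second differed by -0.13 ± 0.15 (adjusted p = 0.772). Ordered by the brightest probe set, WT XY was highest at 8.72 ± 0.22, followed by KO XX at 6.35 ± 0.39, WT XX at 6.32 ± 0.17 and KO XY at 5.95 ± 0.23 (SD, n = 3). KO XX and WT XX did not differ beyond their spread. WT XX and KO XY, the next neighbours, were not set against each other by a test, and the lowest WT XX array and the highest KO XY array both stood at 6.14.

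The measured KO effect on Sox9 differed between the sexes in a direct test. By the brightest probe set, however, WT XX (6.32 ± 0.17) stood near KO XY (5.95 ± 0.23, SD). Without detection calls, the test cannot tell an absent effect in XX from a fall too low to measure. The effect in XY minus the effect in XX was -2.80 ± 0.26 for the brightest probe set (adjusted p = 0.00213), -1.95 ± 0.22 for the second (adjusted p = 0.00549) and -0.62 ± 0.24 for the third (adjusted p = 0.771). Of all probe sets only 3 passed this test, a share of 0.00666%, and without WT XX replicate 1 the number was 10. The 3 were the 2 Sox9 probe sets and one of Abcb1a, which encodes a drug efflux pump and was named after its values were seen, at -1.93 ± 0.21 (adjusted p = 0.00544). With the Gapdh difference as a covariate both Sox9 calls ended, at -2.55 (adjusted p = 0.240, the highest across the alternatives, where the lowest was 0.000576) and -1.64 (adjusted p = 0.807, likewise the highest, where the lowest was 0.00346). With that covariate the difference of the brightest probe set in XY gonads was -2.58 (adjusted p = 0.00018). The part that RNA length has in these values was not tested further.

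**Figure D1:**
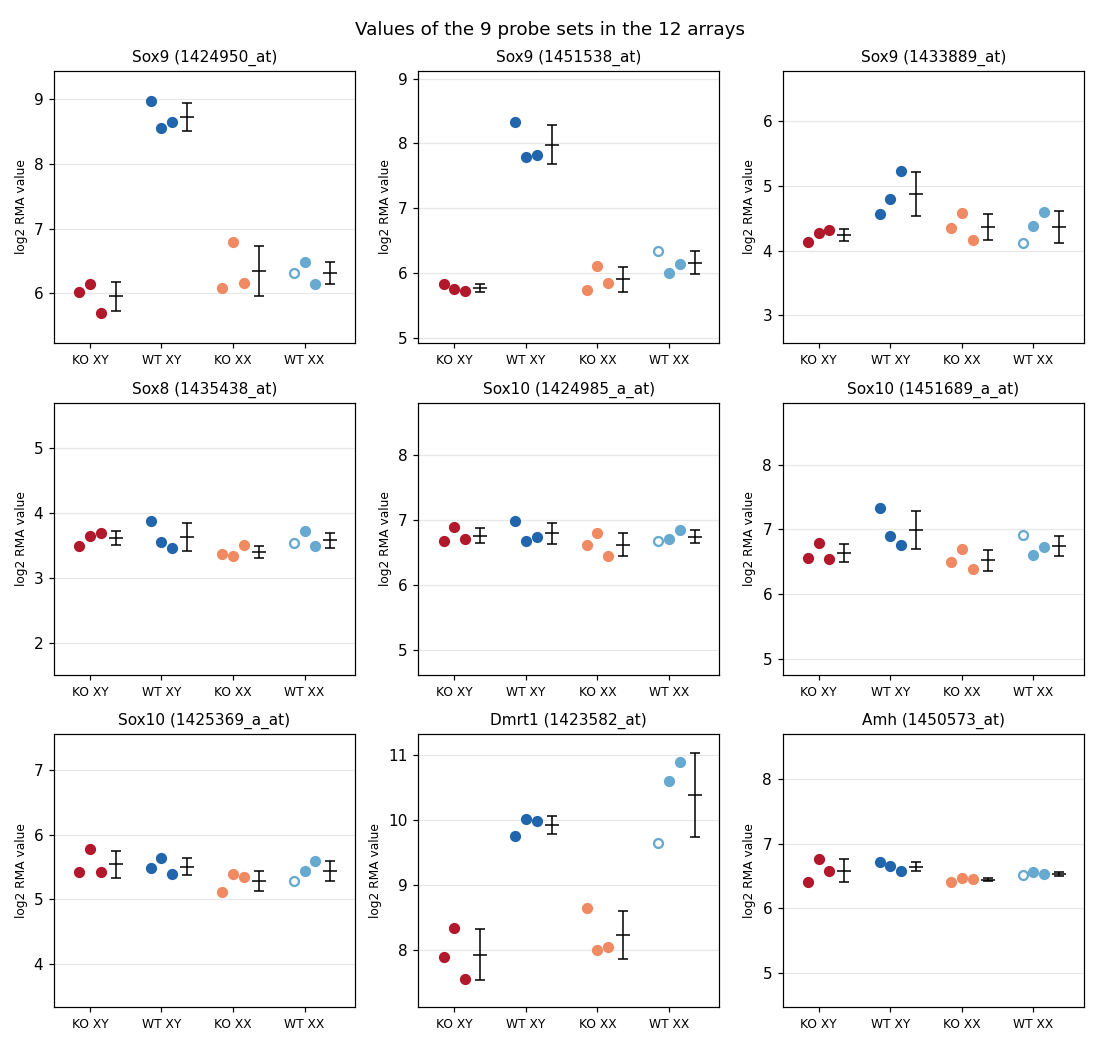
Log2 RMA value (y axis) of each of the 9 probe sets in every array, with KO XY, WT XY, KO XX and WT XX from left to right. Each point is 1 array, the bar beside the points gives the mean ± SD (n = 3), the open point is WT XX replicate 1, and all panels span the same number of log2 units. Sox9 stands high in WT XY only (8.72 ± 0.22), Dmrt1 is lower in KO than in WT in both sexes, and Sox8, Sox10 and Amh stay within a narrow band.

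Dmrt1 was lower in KO gonads of both sexes. Its probe set (1423582_at, for the gene at chr19:25505618-25604328) gave 7.89, 8.34 and 7.55 in KO XY, against 9.76, 10.01 and 9.99 in WT XY. It gave 8.65, 8.0 and 8.04 in KO XX, against 9.65, 10.60 and 10.89 in WT XX. Every KO array lay below every WT array, across both sexes. Dmrt1 was 3.99-fold lower in KO XY than in WT XY, a log2 difference of -2.0 ± 0.28 (95% interval from -2.60 to -1.40, adjusted p = 0.000347). In XX it was 4.44-fold lower in KO than in WT, at -2.15 ± 0.28 (interval from -2.75 to -1.55, adjusted p = 0.000221). Over both sexes the difference was -2.07 ± 0.20 (adjusted p = 4.75e-06).

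The KO effect on Dmrt1 did not differ between the sexes beyond its error. The effect in XY minus that in XX was 0.15 ± 0.39, with an interval from -0.69 to 1.0 (adjusted p = 0.948). XY and XX also overlapped in WT, where they differed by -0.46 ± 0.28 (adjusted p = 0.645). In KO gonads they overlapped too, at -0.31 ± 0.28 (adjusted p = 0.702). Within WT XX the values were uneven. Replicate 1, with 9.65, lay just below the WT XY arrays, and replicates 2 and 3 lay above them. Without it the WT sex difference was -0.82 and stood at the threshold (adjusted p = 0.0509, the lowest across the alternatives). Ordered by level, WT XX had 10.38 ± 0.65, WT XY 9.92 ± 0.14, KO XX 8.23 ± 0.37 and KO XY 7.93 ± 0.39 (SD, n = 3), and the arrays of neighbours in this order overlapped except at the step between WT and KO.

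Germ cells also express Dmrt1, so their markers are given beside it. Of 13 measured germ cell markers none passed the test between KO and WT in XY (2 were higher and 1 lower at an unadjusted p under 0.05), where 5.58% of all genes were higher and 6% lower. In XX 4 were higher in KO and none lower (6 and 0 at an unadjusted p under 0.05), where 7.28% of all genes were higher and 4.64% lower. These 4 were Dazl, Ddx4, Kit and Prdm14, with log2 differences from 0.56 to 0.94, in the opposite direction to Dmrt1. Averaged over both sexes, 5 of the 13 were higher in KO and 0 lower (8 and 1 at an unadjusted p under 0.05). Of all genes 12.5% were higher and 9.44% lower in that contrast. The summed linear level of the list ran from 5338 to 6848 in KO XY, from 5737 to 6255 in KO XX, from 4023 to 5141 in WT XY and from 4304 to 5732 in WT XX. The share of the Dmrt1 signal that comes from germ cells was not tested. One of 2 probe sets passed for Dazl and for Kit. Without WT XX replicate 1, 1 was higher in XY (Tfap2c), and in XX 4 were again higher, with Nanog in place of Prdm14.

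Sox8 and Sox10 showed no difference that passed the test in any of the 6 contrasts. The single Sox8 probe set (1435438_at, for the gene at chr17:25565893-25570686) gave 3.49, 3.65 and 3.69 in KO XY and 3.37, 3.34 and 3.5 in KO XX, against 3.87, 3.56 and 3.46 in WT XY and 3.54, 3.72 and 3.49 in WT XX. All 4 groups overlapped with a neighbour, and all 12 values lay between 3.34 and 3.87. The KO minus WT difference was -0.02 ± 0.12 in XY, with an interval from -0.29 to 0.25 (adjusted p = 0.963), and -0.18 ± 0.12 in XX, from -0.45 to 0.09 (adjusted p = 0.432). The deposited table has no detection calls, so whether the Sox8 probe set stood above background is not known here. Sox8 was the only member with an entry in the promoter sequences used here (RefSeq, GRCm38.p6), and its 250 bases upstream of the start, at chr17:25570687-25570936 on the minus strand, are shown as the reference stretch of this SoxE gene. They held no match to the motifs searched, which are described with the companion genes.
Sox8: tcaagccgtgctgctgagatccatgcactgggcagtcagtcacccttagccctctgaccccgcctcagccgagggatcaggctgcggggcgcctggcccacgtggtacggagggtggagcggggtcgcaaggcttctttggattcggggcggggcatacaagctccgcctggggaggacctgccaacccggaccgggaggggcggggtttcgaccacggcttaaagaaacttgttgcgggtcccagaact

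Sox10 is the gene of neural crest and glia, and none of its 3 probe sets (for the gene at chr15:79154913-79164490) passed the test. The brightest (1424985_a_at) gave 6.68, 6.89 and 6.71 in KO XY and 6.61, 6.80 and 6.44 in KO XX, against 6.98, 6.68 and 6.74 in WT XY and 6.68, 6.71 and 6.85 in WT XX. These groups overlapped throughout, with a KO minus WT difference of -0.04 ± 0.12 in XY (interval from -0.31 to 0.23, adjusted p = 0.920) and -0.13 ± 0.12 in XX (from -0.40 to 0.14, adjusted p = 0.588). The second (1451689_a_at) differed by -0.36 ± 0.15 in XY (adjusted p = 0.184) and by -0.29 ± 0.11 over both sexes (adjusted p = 0.0804, which became 0.0463 without WT XY replicate 3). For the third (1425369_a_at) the KO XY values of 5.42, 5.78 and 5.42 all lay above the KO XX values of 5.11, 5.39 and 5.35, but the difference of 0.26 ± 0.14 did not pass (adjusted p = 0.506).

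Markers of neural crest and glia are given beside Sox10. Of 9 measured markers, 1 was higher and none lower in KO XY than in WT XY (1 and 1 at an unadjusted p under 0.05), and none passed in XX (1 higher and 0 lower at an unadjusted p under 0.05). With 5.58% of all genes higher in KO XY, 1 of 9 is near the background. The one that passed was the neuregulin receptor Erbb3, at 0.66 (adjusted p = 0.0254), named after its values were seen, and its call ended with the Gapdh covariate. Its other probe set did not pass. The summed linear level of the list ran from 927 to 1130 in KO XY, from 966 to 1168 in KO XX, from 1033 to 1154 in WT XY and from 1034 to 1137 in WT XX.

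Amh gave no difference that passed the test in any of the 6 contrasts. Its probe set (1450573_at, for the gene at chr10:80805240-80807679) gave 6.41, 6.76 and 6.58 in KO XY, against 6.71, 6.65 and 6.57 in WT XY. It gave 6.41, 6.47 and 6.45 in KO XX, against 6.51, 6.56 and 6.53 in WT XX. The XY groups overlapped, while each KO XX array lay just below each WT XX array, and each WT XX array just below each WT XY array. None of these steps passed the test. The KO minus WT difference was -0.06 ± 0.11 in XY (interval from -0.29 to 0.17, adjusted p = 0.822) and -0.09 ± 0.11 in XX (from -0.32 to 0.14, adjusted p = 0.671). XY minus XX in WT was 0.11 ± 0.11 (from -0.12 to 0.34, adjusted p = 0.798). Without detection calls it is not known here whether the Amh probe set stood above background, so these intervals set no bound on a change in Amh RNA.

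Counted together, 4 of the 9 probe sets were lower in KO XY than in WT XY, namely all 3 of Sox9 and that of Dmrt1, against 4.65% of all probe sets that were lower in that contrast. In XX it was 1 of 9, Dmrt1, against 3.58%. Over both sexes 3 of 9 were lower, against 7.73%. Between WT XY and WT XX 2 of 9 were higher, against 0.0466%. Between KO XY and KO XX none of 9 passed (0 also at an unadjusted p under 0.05), against 0.0377%. None was higher in KO in any contrast (0 at an unadjusted p under 0.05 in XY and in XX). The KO and WT groups did not overlap for 4 of 9 probe sets in XY and for 2 of 9 in XX, all lower in KO, against 15.1% and 11.6% of all probe sets that were lower without overlap. The comparisons of KO with WT and of XY with XX share arrays, so their counts are not independent. Nor are probe sets of 1 gene, so the 3 of Sox9 are not separate results.

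**Figure D2:**
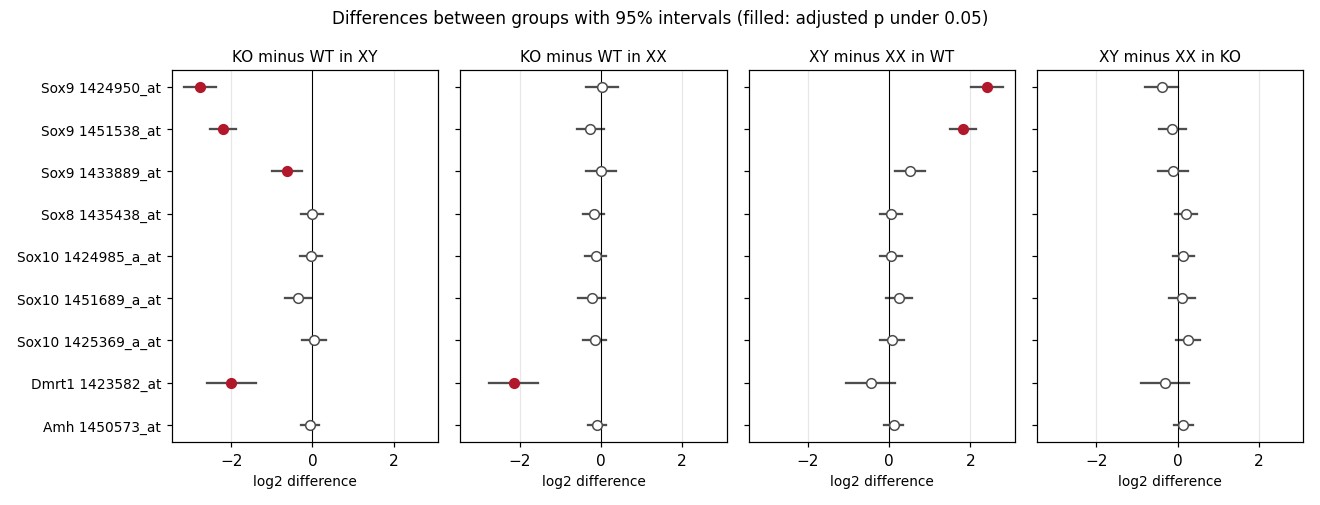
Log2 difference (x axis) with its 95% interval for the 9 probe sets (y axis) in 4 contrasts, one panel each, with filled points at an adjusted p under 0.05. Sox9 lies left of 0 for KO minus WT in XY and right of 0 for XY minus XX in WT, Dmrt1 lies left of 0 for KO minus WT in both sexes, and no point is filled for XY minus XX in KO.

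Genes that act above Sox9 in the gonad were split. Of 16 measured upstream gonad factors, 3 were higher and 5 lower in KO XY than in WT XY, against 5.58% and 6% of all genes, with a list median of 0.01 beside 0.01 over all genes. In XX 5 were higher and 5 lower, against 7.28% and 4.64%, with a list median of 0.07 beside -0.02. Gadd45g, which promotes Sry expression through p38 signalling, had the largest decrease of the list, at -3.84 ± 0.18 in XY (adjusted p = 1.74e-08) and -3.13 ± 0.18 in XX (adjusted p = 1.87e-07). Nr5a1, a nuclear receptor that acts with SOX9 on Amh, gave 7.92, 7.68 and 7.92 in KO XY, against 10.33, 10.02 and 10.21 in WT XY. It also gave 7.83, 7.76 and 8.33 in KO XX, against 10.29, 9.87 and 9.87 in WT XX. No array of one genotype reached the other, with differences of -2.35 ± 0.17 in XY (adjusted p = 1e-06) and -2.04 ± 0.17 in XX (adjusted p = 4.47e-06). These values belong to the brighter of its 2 probe sets. The dimmer one did not pass, with differences of 0.19 in XY and -0.12 in XX.

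Gata4, the zinc finger factor whose protein guided the laser, fell by 1.49 ± 0.17 in XY (adjusted p = 4.97e-05), and in XX by 1.41 ± 0.17 (adjusted p = 9.31e-05). Its other probe set did not pass, at -0.21 in XY and -0.35 in XX. Lhx9, a LIM homeobox factor needed for the gonadal ridge, fell by 1.21 ± 0.17 in XY (adjusted p = 0.00041). Nr0b1, a nuclear receptor that opposes NR5A1, was lower, at -2.5 ± 0.26 in XY (adjusted p = 2.41e-05) and -1.97 ± 0.26 in XX (adjusted p = 0.000219). Insr, the insulin receptor, was higher by 1.0 ± 0.18 in KO XY (adjusted p = 0.00233), and with the Gapdh difference as a covariate that call ended, as did those of the other 2 upstream genes that were higher in XY, Igf1r and Cbx2. For each of these 3 genes only 1 probe set passed in XY. Sry itself gave 5.73 to 6.2 in KO XY, 5.81 to 6.01 in KO XX, 5.94 to 6.04 in WT XY and 5.65 to 5.96 in WT XX. Its probe set thus gave XX gonads, which carry no Sry, the same level as XY gonads, and cannot show whether Sry differed.

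Of 8 genes listed around the FGF9 and prostaglandin loop, 1 was higher and none lower in KO XY (2 and 1 at an unadjusted p under 0.05). In KO XX 2 were higher and none lower (2 and 0). Of all genes 5.58% were higher in XY and 7.28% in XX. Fgf9, the secreted factor of this loop, gave 8.10, 8.60 and 8.30 in KO XY, against 8.82, 7.91 and 7.92 in WT XY. The XY groups overlapped, at 0.12 ± 0.36 (adjusted p = 0.915), although Sox9 was far apart in the same arrays. In XX Fgf9 gave 8.54, 7.72 and 7.88 in KO, against 6.45, 7.77 and 6.16 in WT. WT XX replicate 2 lay within the KO values, and the call for the difference of 1.26 ± 0.36 (adjusted p = 0.0425) ended without WT XX replicate 1 and with the Gapdh covariate. The other Fgf9 probe set differed by 0.07 there and did not pass. Without that array the FGF receptor gene Fgfr2 was lower in KO XX. With all arrays 1 of its 3 probe sets was lower there, but not the brightest. Ptger4, a receptor of prostaglandin E2, was higher in KO in both sexes, by 2.41 ± 0.15 in XY (adjusted p = 3.77e-07), and in XX by 2.31 ± 0.15 (adjusted p = 6.68e-07). Ptgds, the prostaglandin D2 synthase that SOX9 activates, was -0.32 ± 0.14 in XY (adjusted p = 0.192).

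Genes known as targets of Sox9 or Dmrt1, or as their companions in Sertoli precursors, were often lower in KO gonads. The list was drawn up with results of these data known, so its direction is no independent evidence. Of 19 measured genes none was higher and 10 were lower in KO XY than in WT XY (0 and 13 at an unadjusted p under 0.05). The median was -0.92, beside 0.01 over all genes, and the share of all genes that were lower was 6%. In XX none was higher and 7 were lower (0 and 12 at an unadjusted p under 0.05), with a median of -0.52 beside -0.02. Of all genes 4.64% were lower in XX. Over both sexes 13 were lower, against 9.44% of all genes. With the Gapdh covariate 7 of 19 were lower in XY and 9 in XX. Over the whole array that covariate moved the lower probe sets from 2095 to 632 in XY and from 1613 to 1864 in XX.

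Cbln4, a secreted cerebellin that SOX9 activates in the mouse testis, gave 4.92, 4.49 and 4.61 in KO XY, against 8.35, 8.57 and 8.68 in WT XY. It gave 5.39, 5.37 and 5.82 in KO XX, against 8.38, 7.03 and 7.68 in WT XX. KO and WT did not overlap in either sex, at -3.86 ± 0.26 in XY (adjusted p = 6.60e-07) and -2.17 ± 0.26 in XX (adjusted p = 0.000102). WT XX replicate 1 had a Cbln4 level like that of the WT XY arrays, where Sox9 stood more than 2 log2 units higher by its brightest probe set. By its second, Sox9 gave 6.34 in that array, against 7.79 to 8.32 in WT XY. Inhbb, the beta B subunit of activin and inhibin, was lower by a like amount in both sexes, at -3.64 ± 0.23 in XY (adjusted p = 3.77e-07) and -3.42 ± 0.23 in XX (adjusted p = 7.59e-07). Its dimmer probe set differed by -0.32 in XY, which did not pass, and in XX by -0.57, which did. The brighter did not separate WT XY from WT XX, at -0.03 (adjusted p = 0.986), whereas Sox9 separated them.

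Mmd2, a membrane protein gene of Sertoli precursors, followed the sexes more closely. It gave 5.48, 5.64 and 5.36 in KO XY, against 8.96, 7.54 and 7.83 in WT XY, and 6.34, 5.81 and 5.54 in KO XX, against 6.22, 6.57 and 6.13 in WT XX. WT XY stood alone, with a KO minus WT difference of -2.62 ± 0.29 in XY (adjusted p = 5.34e-05) and -0.41 ± 0.29 in XX (adjusted p = 0.448). It was the one gene of the list that passed between WT XY and WT XX, at 1.81 ± 0.29 (adjusted p = 0.0454), against 0.0495% of all genes that were higher there. Its probe set is of a kind (_x_at) that can share sequence with other transcripts. The other 2 Mmd2 probe sets did not show the pattern, and with them the KO minus WT differences in XY ran up to -0.03 and the WT XY minus XX differences down to 0.05, so the Mmd2 values rest on 1 of 3 probe sets. Without WT XX replicate 1, 7 of 19 passed in that contrast, all higher in XY, and these were Cbln4, Cst9, Cyp26b1, Gdnf, Aard, Mmd2 and Defb19. Calls over the whole array rose as well without WT XX replicate 1, to 2449 probe sets, 958 of them higher in XY. With all arrays 25 probe sets were called, 21 of them higher. The share of 0.0495% belongs to the fit with all arrays and is no background for the 7 of 19.

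Cst9, a cystatin gene of Sertoli cells, gave 4.68, 4.52 and 4.80 in KO XY, against 8.81, 7.09 and 7.23 in WT XY. One WT XY array, replicate 1, lay well above the other two, yet all were above KO, at -3.05 ± 0.35 (adjusted p = 7.29e-05). Cyp26b1, the enzyme that breaks down retinoic acid in the fetal testis, was -1.23 ± 0.14 in XY (adjusted p = 5.01e-05) and -0.38 in XX (adjusted p = 0.107). Gdnf, a growth factor for germ line stem cells, was -0.92 in XY (adjusted p = 0.00172) and -0.07 in XX (adjusted p = 0.837). Defb19, a defensin gene, was -1.88 ± 0.24 in XY (adjusted p = 0.000139) and -1.48 ± 0.24 in XX (adjusted p = 0.00106). The KO effect did not differ between the sexes at the threshold for any of the 19, Mmd2 included (0 of 19 passed the limma interaction, and 6 were lower at an unadjusted p under 0.05), so a call in one sex alone does not show a difference between the sexes. Without WT XX replicate 1 Cbln4 passed that test.

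Some members of the list, named here after their values were seen, did not pass in XY. Dhh, the hedgehog ligand of Sertoli cells, was -0.79 (adjusted p = 0.0608). By their brightest probe sets Erbb4, Etv5, Fgf18, Col9a3, Hsd17b3 and Slc9a3r1 lay between -0.20 and 0.20. Of the 3 Etv5 probe sets, however, 1 was called lower in XY, and their differences ran from -0.66 to 0.002.

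**Figure D3:**
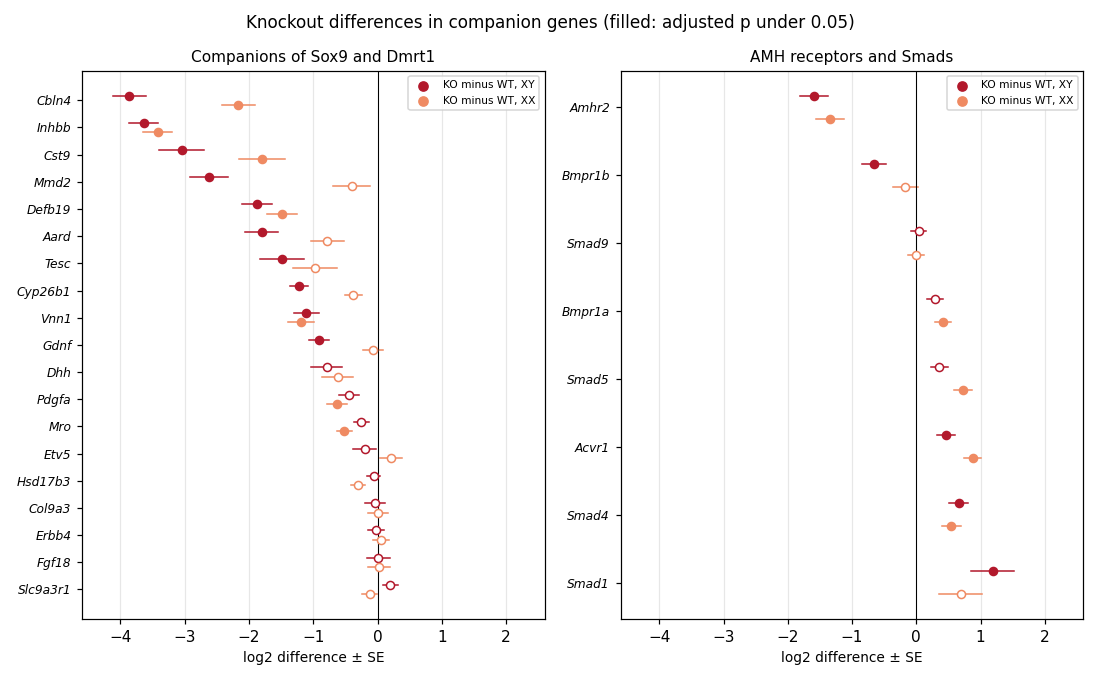
Log2 difference ± SE (x axis) of KO minus WT in XY (dark red) and XX (orange) for 19 companion genes of Sox9 and Dmrt1 (left) and 8 AMH receptor and Smad genes (right), ordered by the XY value, with filled points at an adjusted p under 0.05. Inhbb is lower by a like amount in both sexes (-3.64 in XY and -3.42 in XX), Mmd2 is lower in XY (-2.62) and not called in XX (-0.41), and Amhr2 is lower in both.

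The 250 bases upstream of the start were searched on both strands for AACAAT, a core bound by SOX factors, AAGGTCA, a site of NR5A1, and AGATAA, a site of GATA factors. The promoters came from RefSeq (GRCm38.p6), and the shares among all 32851 promoters were 9.42%, 4.08% and 9.99%. Of the 10 companions that were lower in KO XY, 7 had a promoter there and 1 of these, Cbln4, held the SOX core. Of the 9 that were not called, 7 had a promoter and 1 held it, Erbb4. The GATA site was held by 1 of the lower companions, Gdnf, and by 0 of those not called. No companion of either set held the NR5A1 site. The Cbln4 stretch (chr2:172043467-172043716, minus strand) is shown as that of the companion with the largest decrease in XY, and its capitals mark the SOX core read on the other strand, from position -242 relative to the start. A match is a description of letters and not a bound site.
Cbln4: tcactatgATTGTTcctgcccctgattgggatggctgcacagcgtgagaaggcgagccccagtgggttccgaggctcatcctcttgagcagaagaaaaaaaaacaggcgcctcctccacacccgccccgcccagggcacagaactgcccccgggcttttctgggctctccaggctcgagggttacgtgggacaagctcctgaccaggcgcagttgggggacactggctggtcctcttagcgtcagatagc

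On the receiving side of AMH, its own receptor was lower in KO gonads, and parts shared with other signals went both ways. Amhr2, the type II receptor that only AMH uses, gave 11.403, 10.993 and 11.504 in KO XY, against 12.96, 12.94 and 12.77 in WT XY. It gave 10.77, 10.93 and 11.48 in KO XX, against 12.89, 12.23 and 12.12 in WT XX. KO and WT did not overlap in either sex, at -1.59 ± 0.22 in XY (adjusted p = 0.000263) and -1.35 ± 0.22 in XX (adjusted p = 0.00111). The receptor thus differed with genotype in arrays in which the hormone gene did not pass the test. Of the 8 genes of the receptor and Smad list, 3 were higher and 2 lower in KO XY, with a median of 0.32, and 4 were higher and 1 lower in KO XX, with a median of 0.48. Of all genes 5.58% were higher and 6% lower in XY, and 7.28% were higher and 4.64% lower in XX.

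Smad4, the partner shared by all Smad signals, was higher by 0.66 ± 0.15 in KO XY (adjusted p = 0.012), and in KO XX by 0.54 ± 0.15 (adjusted p = 0.0351). Acvr1, a type I receptor, was higher by 0.46 ± 0.14 in XY (adjusted p = 0.0471), and in XX by 0.88 ± 0.14 (adjusted p = 0.00085). Smad1 was higher in XY at 1.18 ± 0.33 (adjusted p = 0.0373), and Bmpr1b, another type I receptor, was lower at -0.66 ± 0.19 (adjusted p = 0.0442). With the Gapdh covariate 0 of 8 were higher and 1 lower in XY, the one being Amhr2, and without WT XX replicate 1 the XX calls of Bmpr1a and Smad4 ended. Of the 3 probe sets each of Smad4, Acvr1 and Bmpr1b only the one given passed in XY, and of those of Smad1 2 passed. In XX 1 of 3 probe sets passed for each of Smad4, Acvr1 and Smad5, and 1 of 6 for Bmpr1a. Smad5 is among the 4 genes counted as higher in XX. Over both sexes its probe sets were called in opposite directions, so its direction depends on the probe set.

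The Amhr2 stretch upstream of the start (chr15:102445117-102445366, plus strand) is shown as that of the AMH receptor, a gene lower in both sexes. Its capitals mark the letters of the NR5A1 motif, which begin at position -231 relative to the start and which 4.08% of all promoters hold. Whether NR5A1 acts there was not tested.
Amhr2: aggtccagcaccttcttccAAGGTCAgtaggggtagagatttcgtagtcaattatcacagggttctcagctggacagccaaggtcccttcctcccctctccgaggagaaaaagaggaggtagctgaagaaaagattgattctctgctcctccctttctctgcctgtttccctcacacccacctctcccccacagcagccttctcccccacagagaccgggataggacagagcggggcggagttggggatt

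Of 12 genes listed as ovary-side factors opposing Sox9 and Dmrt1, 1 was higher and 4 were lower in KO XY. In KO XX 1 was higher and 6 were lower. Of all genes 5.58% were higher and 6% lower in XY, and 7.28% and 4.64% in XX. The higher gene in both sexes was Nr2f2, a nuclear receptor of interstitial cells, and all the other called genes were lower. Fst, the activin binder follistatin, was -3.35 ± 0.30 in XY (adjusted p = 6.85e-06) and -4.28 ± 0.30 in XX (adjusted p = 1.10e-06). Foxl2, the granulosa cell factor that represses Sox9 in the adult ovary, gave 5.98, 6.16 and 6.0 in KO XY, against 6.58, 6.53 and 6.29 in WT XY. In XX it gave 5.82, 6.13 and 5.92 in KO, against 6.60, 7.51 and 6.95 in WT, and its difference of -1.06 ± 0.18 passed (adjusted p = 0.00207). Its other probe set differed by -0.30 in XX and did not pass. Runx1, a factor of pregranulosa cells, was -2.68 ± 0.25 in XY (adjusted p = 1.01e-05) and -2.94 ± 0.25 in XX (adjusted p = 5.61e-06). Nr2f2 was higher by 1.40 ± 0.21 in KO XY (adjusted p = 0.000512), and in KO XX by 1.20 ± 0.21 (adjusted p = 0.00182), and its XY call ended with the Gapdh covariate.

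The wider Sox family went both ways. Of 16 other Sox genes, counted by the brightest probe set, none was higher and 4 were lower in KO XY than in WT XY. At an unadjusted p under 0.05 these counts were 4 and 4. Of all genes 5.58% were higher and 6% lower, and the list median was 0.00. Sox5, a partner of SOX9 in cartilage, gave 6.47, 6.45 and 6.62 in KO XY, against 7.5, 7.38 and 7.53 in WT XY, at -0.95 ± 0.16 (adjusted p = 0.0013). The other 3 were the SoxF genes of endothelium, with Sox17 at -1.25 ± 0.22 (adjusted p = 0.00234), Sox18 at -1.03 ± 0.18 (adjusted p = 0.00228) and Sox7 at -1.01 ± 0.22 (adjusted p = 0.0103). All 4 calls ended with the Gapdh covariate, and without WT XX replicate 1, 3 were higher as well (Sox4, Sox11 and Sox12). In XX 1 was higher, the SoxC gene Sox11 at 0.74 ± 0.20 (adjusted p = 0.0296), a call that ended without WT XX replicate 1, and 2 were lower (against 7.28% and 4.64% of all genes), Sox17 at -1.44 ± 0.22 (adjusted p = 0.000875) and Sox18 at -0.90 ± 0.18 (adjusted p = 0.00615). Probe sets of a gene differed here. In XY 3 of 7 passed for Sox5 and 1 of 2 for Sox7, and 5 of the 6 of Sox11 were higher although its brightest did not pass. Also higher in KO XY were 1 of the 8 probe sets of Sox4 and 1 of the 3 of Sox12. Over both sexes 3 of the 16 genes were higher and 4 lower by the brightest probe set, against 12.5% and 9.44% of all genes. No other Sox gene passed between WT XY and WT XX (0 of 16 by limma, and 0 at an unadjusted p under 0.05), where 2 Sox9 probe sets did.

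In the Dmrt family, 2 of 7 other genes were higher and 1 lower in KO XY, and 1 was higher and 1 lower in KO XX, against 5.58% and 6% of all genes in XY and 7.28% and 4.64% in XX. Dmrta1, a DM-domain relative, was the lower one in both. It gave 3.17, 3.73 and 3.39 in KO XY, against 7.22, 7.08 and 7.19 in WT XY. It gave 3.98, 3.63 and 3.66 in KO XX, against 6.55, 6.75 and 5.5 in WT XX. KO and WT lay apart in each sex, at -3.73 ± 0.25 in XY (adjusted p = 6.91e-07) and -2.51 ± 0.25 in XX (adjusted p = 2.34e-05). Dmrtc1a was higher by 0.88 ± 0.15 in XY (adjusted p = 0.00171), and in XX by 0.92 ± 0.15 (adjusted p = 0.00133), and Dmrta2 by 0.40 ± 0.11 in XY (adjusted p = 0.0303). The 2 increases in XY ended with the Gapdh covariate, and the other Dmrtc1a probe set passed in neither sex. Dmrt3 did not pass in XY, at -0.37 ± 0.35 (adjusted p = 0.634).

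**Figure D4:**
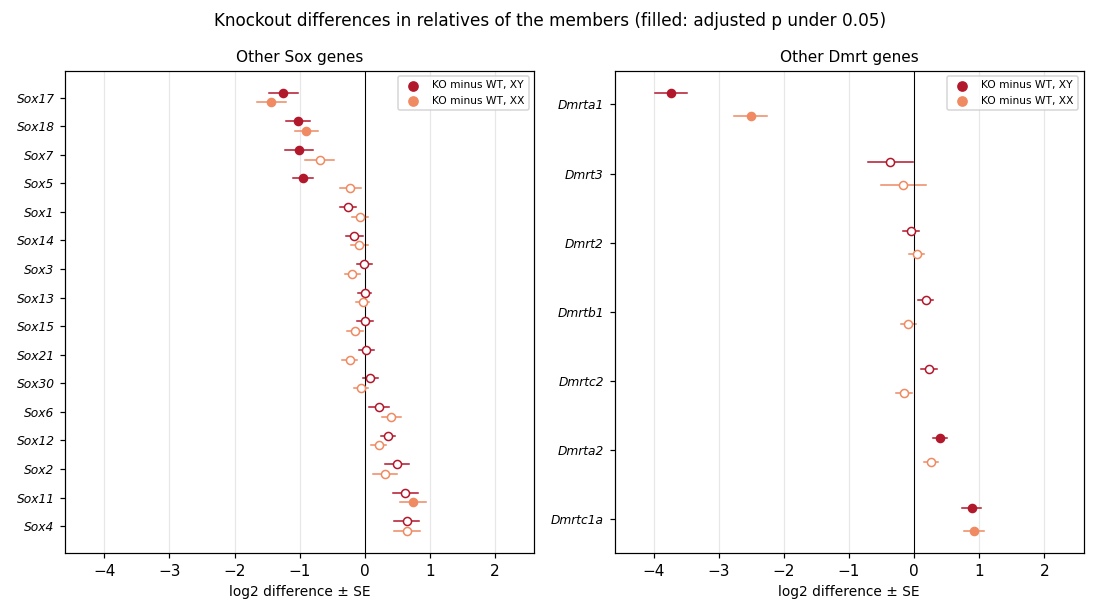
Log2 difference ± SE (x axis) of KO minus WT in XY (dark red) and XX (orange) for 16 other Sox genes (left) and 7 other Dmrt genes (right), ordered by the XY value, with filled points at an adjusted p under 0.05. Dmrta1 stands far left in both sexes (-3.73 in XY and -2.51 in XX), and most other genes lie within 1 unit of 0.

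Markers of other cell types moved with genotype as well, beside 5.58% of all genes higher and 6% lower in XY, and 7.28% higher and 4.64% lower in XX. Of 10 coelomic epithelium markers 6 were higher and 1 lower in KO, in XY and in XX alike, and the summed linear level ran from 12779 to 13214 in KO XY and from 12116 to 15890 in KO XX, against 6837 to 8024 in WT XY and 6274 to 7832 in WT XX. Of 10 endothelial markers none was higher and 7 were lower in KO XY (0 and 8 at an unadjusted p under 0.05), with sums from 1884 to 2567 in KO XY, against 3271 to 3621 in WT XY. In XX 5 were lower, with sums from 1987 to 3125 in KO, against 2887 to 3567 in WT, and 2 were without WT XX replicate 1. The 7 endothelial calls in XY became 1 with the Gapdh covariate, those in XX 3, and the list shares Sox17 with the Sox family. Macrophage markers were higher in 2 of 10 in each sex, with sums from 2868 to 3102 in KO XY and from 2340 to 4433 in KO XX, against 1684 to 2158 in WT XY and 1747 to 2529 in WT XX. With the Gapdh covariate 0 of 10 macrophage markers passed in either sex, and without WT XX replicate 1, 3 passed in XY and 1 in XX. The part of these cell types in the values of Sox9, Dmrt1 and their companions was not tested.

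SOX9 also works in cartilage, and 0 of 8 cartilage markers passed in either sex (limma, 1 higher and 0 lower at an unadjusted p under 0.05 in XY, and likewise in XX). Their summed linear level ran from 815 to 1022 in KO XY, against 549 to 711 in WT XY. In XX it ran from 729 to 1300 in KO, against 647 to 966 in WT. Averaged over both sexes, 2 of the 8 cartilage markers were higher in KO and 0 lower (2 and 1 at an unadjusted p under 0.05). Of all genes 12.5% were higher and 9.44% lower in that contrast. Of 7 mesonephros markers 1, the calcium binder Calb1, was lower in both sexes, at -3.45 in XY and -2.09 in XX, and it too was named after its values were seen. The other 6 did not pass in either sex, and the median of the list was -0.07 in XY and -0.10 in XX. Of the 4 Calb1 probe sets 3 passed in XY and 2 in XX. Calb1 averaged 6.35 in KO XY, against 9.80 in WT XY, and the XX means were 6.89 in KO and 8.98 in WT. It carried most of the summed level in WT XY. The mesonephros sums ran from 371 to 391 in KO XY and from 349 to 482 in KO XX, against 1111 to 1282 in WT XY and 613 to 1021 in WT XX.

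The genes whose pattern was most like that of Sox9 and Dmrt1 were found by the root-mean-square difference over the 12 arrays, after the mean of each probe set was taken away. For scale, the root-mean-square spread of the member itself was 1.12 for Sox9 and 1.11 for Dmrt1. Nearest to Sox9 was Abcb1a at 0.372, whose groups averaged 3.34 (KO XY), 3.23 (KO XX), 5.30 (WT XY) and 3.26 (WT XX). It was followed by Mmd2 at 0.410, the kinase gene Map3k21 at 0.420, the anion transporter gene Slc26a7 at 0.470 and the channel subunit gene Cnga1 at 0.561. All of these stood highest in WT XY, as the choice by likeness fixes. Cnga1 departed most, with 5.94 in WT XX, above its 4.93 in KO XX.

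Nearest to Dmrt1 was an unnamed transcript at 0.270, followed by Aldh1b1, an aldehyde dehydrogenase gene, at 0.287, Elfn1 at 0.320, Klhl23 at 0.321 and the semaphorin gene Sema7a at 0.339. Aldh1b1 averaged 6.96 (KO XY), 7.04 (KO XX), 8.45 (WT XY) and 9.09 (WT XX). These genes split the arrays by genotype with WT XX at the top, the order that Dmrt1 had, as the choice by likeness fixes. The nearest gene to Dmrt1 was closer to it than the nearest gene to Sox9 was to Sox9.

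**Figure D5:**
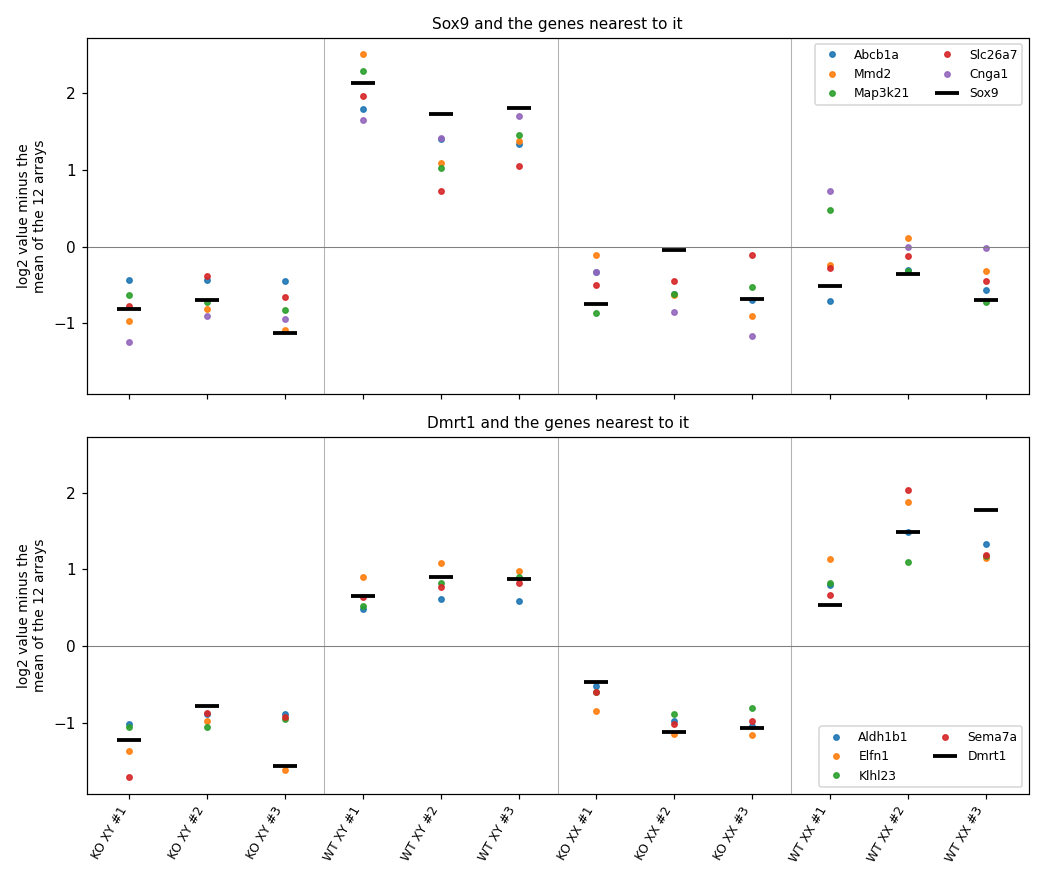
Log2 value minus the mean of the 12 arrays (y axis) in each array (x axis, grouped as KO XY, WT XY, KO XX and WT XX) for Sox9 (upper panel) and Dmrt1 (lower panel), as black bars, and for the named genes nearest to them, as coloured points. The points of the upper panel are high in the WT XY arrays, and those of the lower panel are high in all 6 WT arrays.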

How the data were processed

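Gene expression was measured on Affymetrix mouse arrays, one per pool, in 12 pools of laser-captured E11.5 gonadal cells, 3 per group. The values deposited by the authors were log2 values made with RMA, per the submitters' processing notes, which name Affymetrix Expression Console, RMA and affy, with versions not given in the sources used here. RMA corrects background, equalises the arrays by quantiles and summarises the probes of a probe set, so levels are relative and differences are compressed near background. The deposited log2 table was used as it stood, without a filter on low values. Of its 45101 probe sets 64 controls were left out.

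All 45037 others were fitted with limma 3.58.1 (R 4.3.3, lmFit and eBayes, 4 group means, with 8 residual degrees of freedom). Of the 6 contrasts, 3 set KO against WT (XY, XX, and their average), 2 set XY against XX (WT, KO), and 1 took the difference of the KO effects, called the interaction. Tests were two-sided, with Benjamini-Hochberg adjustment over all probe sets and a threshold of 0.05. The steps were tested on simulated data. Intervals are 95% intervals from the fit, and the number of arrays limits the precision.

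Probe sets were named through the platform annotation, which gave 34945 with a single gene, 932 with several and 9160 with none. The RefSeq table, from which gene coordinates came, held the identifier of 34741 of those with a single gene. List genes were counted by their brightest single-gene probe set. Named were the members, up to 6 genes per list and contrast with the smallest p, and the 5 genes nearest to Sox9 and to Dmrt1. Other names are marked as chosen after their values were seen, or belong to marker lists or to counts. Members and lists were chosen with earlier results of these data known. Some genes of the lists were not analysed here, and counts are over the measured genes. Summed linear levels of lists add the values of different probe sets and serve only to compare arrays. Groups follow the sample titles and the genotype label, although the source label of the 6 WT samples names KO XX gonads. Nothing in the labels shows whether pools shared a litter or day.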

Additional observations from a re-analysis of the deposited data

Results flagged for a closer look

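Sox9 was the one member whose KO effect differed between the sexes in a direct test. The effect in XY minus the effect in XX was -2.80 for the brightest probe set and -1.95 for the second. The effect itself was -2.77 in XY and 0.03 in XX for the brightest, and -2.21 in XY and -0.26 in XX for the second. Both calls ended with the Gapdh 3' minus 5' difference as a covariate, under which the values were -2.55 (adjusted p = 0.240) and -1.64 (adjusted p = 0.807), and no probe set passed this contrast there. The Gapdh difference was 4.91 ± 0.12 in KO XY, and 4.05 to 4.30 as the group means of the other groups. Sox9 in WT XX stood near its KO XY level, so a fall in XX could have gone unmeasured.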

How the results depend on the processing

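Over all alternatives no difference of a member probe set changed direction at a call. Sox9 by its first 2 probe sets and Dmrt1 kept their calls for KO against WT in XY and over both sexes, Dmrt1 kept its call in XX, and Sox9 kept its call for XY against XX in WT. Fitting the Gapdh difference as a covariate moved the number of member genes with a called probe set in the interaction to 0, against 1 without it. Without WT XY replicate 3 Sox10 was called as well over both sexes (1451689_a_at, adjusted p = 0.0463). No other number of member genes called changed. Leaving out each array in turn, 2 member genes were called in XY, 1 in XX, 2 to 3 over both sexes, 1 between WT XY and WT XX, 0 between KO XY and KO XX, and 1 in the interaction. The mean of the 3 Sox9 probe sets gave an interaction of -1.79, against -2.80 for the brightest. The deviations of same-numbered arrays from their group means correlated from -0.178 to 0.224. Arrays with different numbers were not compared, so these values cannot settle whether replicate numbers pair the arrays. With the replicate block the Sox9 difference in XY was -2.77 and the Dmrt1 difference in XX was -2.15, and the block changed no call.

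The number of probe sets called over the whole array moved more. For KO against WT in XY it was 4003, and it became 1040 with the Gapdh covariate, 6937 with array weights, 6139 with only the 2 groups in the fit, 2541 without WT XY replicate 1 and 2645 without WT XY replicate 3. In XX it was 4213, and 2514 with only the 2 groups. For XY against XX in WT it was 25, and it became 2449 without WT XX replicate 1, 60 with array weights and 11 with the low-value filter. In KO it was 17, and 30 without WT XX replicate 1, and in the interaction 3, and 10 without that array. With 1 probe set per gene the counts were 2421 in XY, 2493 in XX, 4326 over both sexes (7910 in the main analysis), 11 and 6 between the sexes in WT and KO, and 1 in the interaction, since fewer features were tested. The cause of the other changes was not tested. List counts with the Gapdh covariate or without WT XX replicate 1 were chosen after seeing the data. Without detection calls, the probe sets of Sox8, Sox10 and Amh allow no statement on whether these genes were expressed. The same holds for Sox9 outside WT XY.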
